A study of Homo sapiens with 6 samples.

Results

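The 10 long noncoding RNAs described here are MALAT1, NEAT1, H19, GAS5, SNHG1, SNHG15, ZFAS1, CYTOR, HULC and OIP5-AS1. They were chosen by name, as nuclear, imprinted, snoRNA host and liver cancer transcripts, and all 10 were found among the 57500 genes of the count files. For 9 of them the Ensembl identifier gave the symbol, and HULC was matched by its position. RNA was sequenced from HepG2 cells, an established human hepatocellular carcinoma line with a wild-type genotype label. Cells received vehicle or 10 mM glycine and were harvested after 24 h, with 3 libraries per group, which the submitters call independent replicates. HepG2 is 1 tumour line, and in bulk RNA fewer cells of a kind and less RNA per cell cannot be told apart. The comparison asks which of these transcripts differ when cells are given extra glycine.

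Long noncoding RNAs are transcribed and often spliced like messenger RNAs but are not known to encode a large protein. MALAT1 lies in nuclear speckles, which store splicing factors, and NEAT1 is the scaffold of paraspeckles, nuclear bodies built from RNA and RNA-binding proteins. GAS5, SNHG1, SNHG15 and ZFAS1 carry small nucleolar RNAs (snoRNAs), guides for the chemical modification of ribosomal RNA, in their introns. H19 is expressed from the maternal chromosome and shares an imprinted domain with IGF2. CYTOR, HULC and OIP5-AS1 are cytoplasmic or mixed in location, and HULC was first described as highly up-regulated in liver cancer.

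MALAT1 and NEAT1 share an unusual 3′ end, which is shown because these neighbouring genes of chromosome 11 are compared with each other below. MALAT1 and the longer NEAT1 isoform are cut by RNase P, which releases a small tRNA-like RNA and leaves an end on each protected by U-rich and A-rich stretches instead of a long poly(A) tail. The 100 bases just before the annotated tRNA-like gene were read from the GENCODE 29 transcripts on GRCh38 (plus strand), at chr11:65506017-65506116 for MALAT1 and chr11:65445441-65445540 for NEAT1. Runs of at least 4 T and at least 5 A are in capitals.
MALAT1: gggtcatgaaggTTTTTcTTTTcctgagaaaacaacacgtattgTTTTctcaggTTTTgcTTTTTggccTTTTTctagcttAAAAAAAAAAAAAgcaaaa
NEAT1: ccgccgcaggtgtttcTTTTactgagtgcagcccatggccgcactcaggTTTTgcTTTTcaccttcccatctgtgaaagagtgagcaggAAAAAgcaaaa
The rows for the tRNA-like RNAs themselves held 0 counts in all 6 libraries. The NEAT1 one, of 58 bases, lies just after the annotated gene. The MALAT1 one, of 57 bases, lies inside the annotated MALAT1 gene on the same strand, and whether this overlap set its counts was not tested.

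Some snoRNA host genes begin with a C followed by further pyrimidines, the start found on messenger RNAs of the translation machinery. The first 30 bases of 3 members and of 3 other hosts are given as examples, with the opening run of pyrimidines in capitals. The 3 other hosts printed all have a run of at least 5, so the printed starts do not show how common it is. The transcript starting at the RefSeq position was taken, or otherwise the most frequent start among the gene's GENCODE transcripts (the most upstream in a tie), which was that of 6 of 29 for GAS5 and 2 of 8 for SNHG16.
GAS5: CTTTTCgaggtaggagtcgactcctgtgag
SNHG1: CTCatttttctactgctcgtggtaagtggc
ZFAS1: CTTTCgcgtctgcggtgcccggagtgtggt
SNHG5: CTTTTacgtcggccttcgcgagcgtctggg
SNHG12: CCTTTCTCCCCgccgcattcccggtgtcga
SNHG16: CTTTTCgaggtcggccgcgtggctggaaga
These lie at chr1:173867960-173867989 (minus), chr11:62855856-62855885 (minus), chr20:49278642-49278671 (plus), chr6:85678704-85678733 (minus), chr1:28581844-28581873 (minus) and chr17:76557769-76557798 (plus). A run of at least 5 pyrimidines opening with C was found in 9 of 25 listed snoRNA host genes (36.0%). These 25 were those found by name in GENCODE 29, with GAS5, SNHG1 and ZFAS1 included and SNHG15 not examined. Among long noncoding RNA genes of GENCODE 29 the run was found in 375 of 16042 (2.34%). GAS5 and ZFAS1 had such a run and SNHG1, with 3, did not. This is a match of letters at annotated starts only.

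The libraries held between 31795489 and 58815986 counts, and the 10 members took between 0.0326% and 0.0411% of them. A single count was worth 0.0171 to 0.0313 CPM, the usual unit of counts scaled to library size, with sizes adjusted by TMM (a trimmed mean of log ratios between libraries). Of the 10 liver cell markers listed, all 10 were tested, and albumin (ALB) lay between 4682 and 9038 CPM. The 10 markers of other liver cell types summed to 77.0 to 87.5 CPM with vehicle and 70.2 to 76.9 CPM with glycine, most of it ACTA2, and the macrophage marker MARCO had 0 counts throughout.

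MALAT1 fell and ZFAS1 rose with glycine, the other 6 tested members did not pass the test, and 2 members were too low to test. Across all 15492 genes tested with edgeR's quasi-likelihood test (Benjamini-Hochberg adjusted p under 0.05), 1040 were higher (6.71%) and 1013 lower (6.54%). Among the 1914 tested long noncoding RNA genes, 89 were higher (4.65%) and 57 lower (2.98%). The 8 tested members, with 1 higher and 1 lower, had a median log2 change of -0.03, against 0.0035 over all tested genes. The groups did not overlap for MALAT1 and ZFAS1, and 31.6% of all tested genes showed no overlap of the 3 vehicle and 3 glycine libraries.

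**Figure D1:**
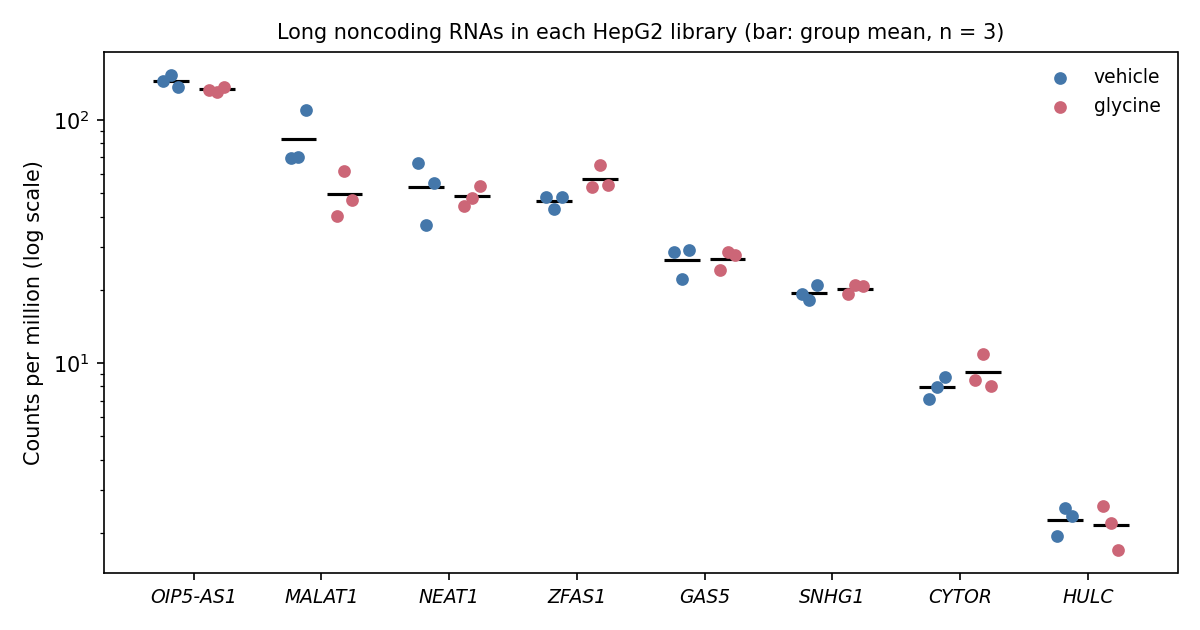
Level in CPM (log scale) of the 8 tested long noncoding RNAs in each HepG2 library, with vehicle in blue, glycine in red and a bar at each mean of 3 libraries. The 3 glycine libraries lie below all vehicle libraries for MALAT1 and above them for ZFAS1, while the groups overlap for NEAT1, GAS5, SNHG1, CYTOR, HULC and OIP5-AS1.

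MALAT1 (ENSG00000251562, chr11:65497762-65506516, plus strand) was measured at 69.6, 70.1 and 109.8 CPM in vehicle libraries 1, 2 and 3. With glycine the values were 40.2, 61.3 and 46.7 CPM. Vehicle library 3 stood above the other two, and every glycine library was below every vehicle library. The log2 change was -0.75 ± 0.17 (SE, n = 3 per group), a fold of 0.596 with a 95% interval of 0.464 to 0.767 (edgeR adjusted p = 0.0108). Without vehicle library 3 the log2 change was -0.49 (edgeR adjusted p = 0.0190). The Wald test of DESeq2 gave -0.76 with an adjusted p of 0.0671, which did not pass. Exons of MALAT1 shared 23.3% of their length with other annotated genes, mostly on the opposite strand, and the strand setting of the counting was not given in the sources used here.

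NEAT1 (ENSG00000245532, chr11:65422774-65445540, plus strand) lies upstream of MALAT1 on the same chromosome arm and strand. It was measured at 66.7, 36.8 and 54.9 CPM with vehicle and at 44.1, 47.7 and 53.6 CPM with glycine. The vehicle libraries enclosed all glycine values. The log2 change was -0.12 ± 0.15 (SE, n = 3 per group; edgeR adjusted p = 0.662), and the interval of the fold ran from 0.729 to 1.16. Without vehicle library 2, the lowest, the log2 change was -0.33 and passed (edgeR adjusted p = 0.0475), and without vehicle library 1 it was 0.07.

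The difference between both nuclear RNAs was examined inside each library. The log2 ratio of MALAT1 to NEAT1 averaged 0.66 ± 0.52 (SD, n = 3) with vehicle and 0.01 ± 0.31 (SD, n = 3) with glycine, a difference of -0.65 (two-sided exact permutation p = 0.2, adjusted p = 0.267 over 4 ratios; the smallest p that 3 against 3 allows is 0.1). With 3 libraries per group this test could not pass 0.05, so it does not settle whether their responses differed.

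Proteins of the bodies these RNAs belong to were examined from lists compiled from general knowledge. Of 16 tested paraspeckle proteins, 4 were higher and 2 lower. Their log2 changes had a median of 0.09. The cold-inducible RNA-binding protein RBM3 rose by 0.42 (adjusted p = 0.00152), and the RNA-binding proteins TAF15 and EWSR1 rose by 0.26 (adjusted p = 0.0193) and 0.24 (adjusted p = 0.0218), all in edgeR. SMARCA4, a chromatin remodelling ATPase, rose by 0.25 (edgeR adjusted p = 0.0298). The call of RBM3 held in all 15 alternatives run for it. TAF15 was not called without vehicle library 1 or glycine library 1 or 2 (0.22 to 0.25). EWSR1 was not called without vehicle library 1 or any glycine library, or with the replicate block (0.23 to 0.24), and SMARCA4 without any library except vehicle library 2 (0.21 to 0.26). Of 15 tested nuclear speckle proteins and splicing factors, 0 passed in edgeR, DESeq2 or limma, and 1 had an unadjusted p under 0.05. The smallest p there belonged to the kinase CLK4, at a log2 change of -0.37 (edgeR adjusted p = 0.0999).

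ZFAS1 (ENSG00000177410, chr20:49278178-49295738, plus strand) was the member that rose. It was measured at 48.3, 43.0 and 47.9 CPM with vehicle and at 52.7, 65.2 and 54.0 CPM with glycine. All glycine libraries were above all vehicle libraries, with glycine library 2 the highest. The log2 change was 0.31 ± 0.09 (SE, n = 3 per group), a fold of 1.24 with a 95% interval of 1.09 to 1.41 (edgeR adjusted p = 0.0318). The call was lost without vehicle library 1 (0.33, adjusted p = 0.0639), without vehicle library 2 (0.26, adjusted p = 0.0919) and without glycine library 2 (0.20, adjusted p = 0.135), all in edgeR. Other annotated genes overlapped 46.95% of its exon length, among them the head of ZNFX1 on the opposite strand, whose mean was 38.9 CPM without and 39.0 CPM with glycine.

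GAS5 (ENSG00000234741, chr1:173863900-173868882, minus strand), named for its rise in growth-arrested cells, was measured at 28.6, 22.1 and 29.1 CPM with vehicle. With glycine it was at 24.0, 28.6 and 27.9 CPM. The groups overlapped, and the log2 change of 0.02 ± 0.10 (SE, n = 3 per group; edgeR adjusted p = 0.946) had a fold interval of 0.867 to 1.18. SNHG1 (ENSG00000255717, chr11:62851988-62855914, minus strand) was at 19.2, 18.1 and 21.0 CPM with vehicle and at 19.1, 20.9 and 20.7 CPM with glycine. Its log2 change was 0.06 ± 0.08 (SE, n = 3 per group; edgeR adjusted p = 0.671), with a fold interval of 0.927 to 1.17.

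The log2 ratio of ZFAS1 to SNHG1 was higher in every glycine library (1.46, 1.64 and 1.39) than in every vehicle library (1.33, 1.25 and 1.19). The difference of 0.24 had a two-sided exact permutation p of 0.1, the smallest possible (adjusted p = 0.267 over 4 ratios). The ratio of ZFAS1 to GAS5 differed by 0.28 (exact permutation p = 0.2, adjusted p = 0.267), and its groups overlapped between vehicle library 2 at 0.96 and glycine library 3 at 0.95. The ratios were chosen after the values were seen, and with 3 libraries per group the test could not pass 0.05, so it does not settle whether these hosts differed in response.

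SNHG15 (ENSG00000232956, chr7:44983023-44986961, minus strand) had almost no counts. It had 0 counts in 5 libraries and 1 count in glycine library 3. A count of 0 allows up to 3 counts, which is 0.0513 to 0.0940 CPM across the libraries. No fold is given. Whether the counting settings or the annotation behind this row set its counts was not tested, so they are not read as absence of the transcript. Its protein-coding neighbour CCM2 was at 30.4 to 35.1 CPM.

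Of 24 further snoRNA host genes listed, 21 were tested and 1 was lower, and the median log2 change was 0.03. The edgeR count of 0 higher hosts compares with 2 at an unadjusted p under 0.05 and 0 in both DESeq2 and limma. SNHG14, the long host transcript of the imprinted region on chromosome 15, was lower at 28.9, 26.1 and 33.9 CPM with glycine against 47.7, 35.2 and 40.2 CPM with vehicle (log2 change -0.47 ± 0.11, edgeR adjusted p = 0.0137). That call was lost without vehicle library 1 (-0.36, edgeR adjusted p = 0.0528) and without glycine library 2 (-0.38, edgeR adjusted p = 0.0589). Of the hosts with printed starts, ZFAS1 alone passed. SNHG5 was at 137 to 150 CPM with vehicle and 131 to 164 CPM with glycine, and SNHG16 at 133 to 160 CPM and 128 to 130 CPM.

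**Figure D2:**
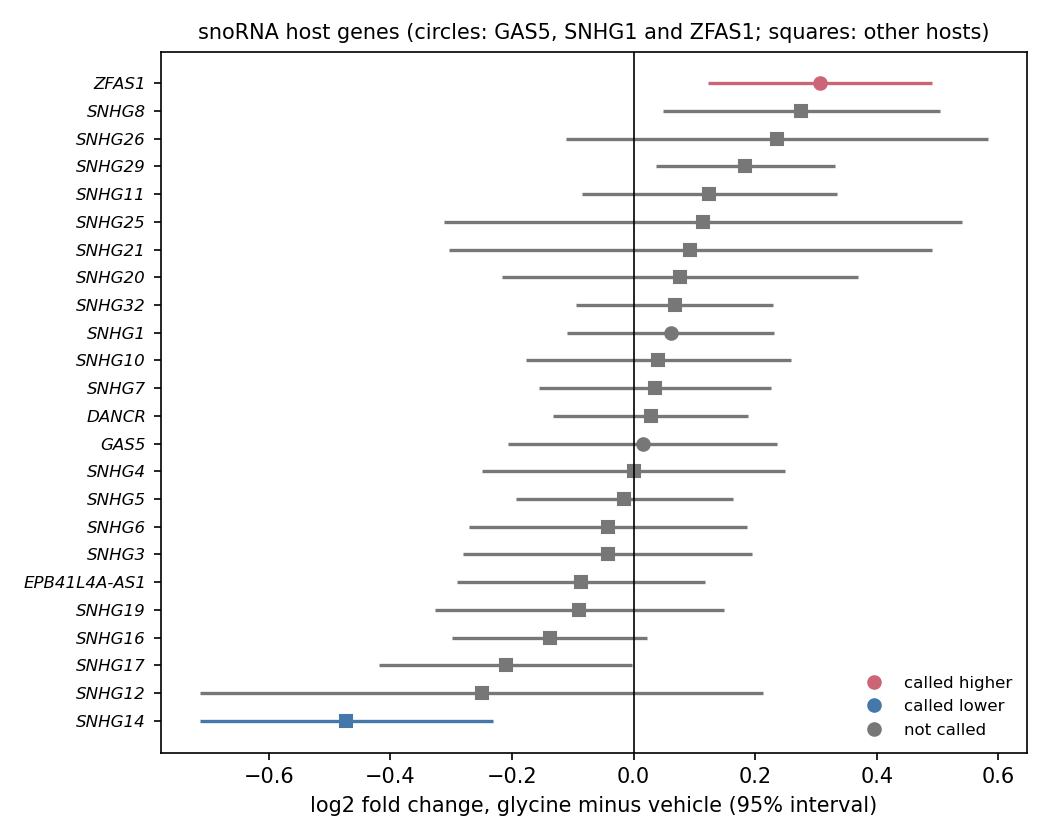
Log2 fold change, glycine minus vehicle, with its 95% interval for 24 tested snoRNA host genes, with circles for GAS5, SNHG1 and ZFAS1 and squares for the others. ZFAS1 is the only gene called higher at 0.31, SNHG14 the only one called lower at -0.47, and the other 22 are grey.

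The snoRNAs themselves were barely counted in these libraries. Of 11 snoRNA rows inside the hosts SNHG1, SNHG15 and ZFAS1, 8 had 0 counts in all libraries and the other 3 held 84 counts in total. SNORD12B, in an intron of ZFAS1, held 61 of them. The 8 rows without counts lie wholly within annotated exons of their hosts, on the same strand. SNORD12B and SNORD12C lie outside such exons, and SNORD30 shares 34 of its 70 bases with them. Whether this overlap set the counts was not tested. The selection of RNA for the libraries is not given in the sources used here. RN7SK and RMRP, abundant RNAs without a poly(A) tail, also had 0 counts throughout. Of the 14 listed RNAs without a long poly(A) tail found here, 6 had 0 counts in all libraries. The 14 summed to 59 to 136.5 CPM with vehicle and 80.9 to 114.8 CPM with glycine, and 6 of them passed the filter on low counts. Whether RNAs without a tail were captured as a class was not tested.

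Proteins that bind snoRNAs, the decay pathway that degrades many host transcripts, and messenger RNAs with the pyrimidine start were compared with the hosts. Of 10 tested snoRNP proteins 2 were higher in edgeR and 0 lower, with an unadjusted p under 0.05 for 5 that were higher and 0 that were lower, and DESeq2 and limma each gave 2 higher and 0 lower. NOLC1, a chaperone of snoRNPs, rose by 0.32 (edgeR adjusted p = 0.00442), and NHP2, a core H/ACA protein, by 0.27 (edgeR adjusted p = 0.0279). NHP2 lost its call without vehicle library 1 or 2 or glycine library 1 or 2, at 0.19 to 0.29. Of 14 tested nonsense-mediated decay factors 0 passed in edgeR or limma and 2 had an unadjusted p under 0.05. UPF1, the central helicase, was at -0.19 (edgeR adjusted p = 0.0581) and passed in DESeq2 (-0.20, adjusted p = 0.0239). Of 16 tested translation genes with the pyrimidine start 0 passed in edgeR, DESeq2 or limma and 0 had an unadjusted p under 0.05, with NPM1 at the smallest p (log2 change 0.12, edgeR adjusted p = 0.363).

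H19 (ENSG00000130600, chr11:1995163-2001470, minus strand) was the other member near zero. It had 0, 0 and 2 counts with vehicle and 2, 6 and 9 counts with glycine, at most 0.213 CPM in any library. The lowest glycine library (0.0627 CPM) lay just above the highest vehicle library (0.0556 CPM), both with 2 counts. The summed rate with glycine was 6.78 times that with vehicle, with an exact 95% interval of 1.61 to 60.5 that covers counting error only. H19 failed the filter on low counts, and when all 31093 genes with at least 1 count were tested its adjusted p was 0.1 (edgeR). No change of H19 was shown, and, as for SNHG15, whether counting settings or annotation set these low counts was not tested.

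IGF2, the growth factor gene next to H19, stood at 1452, 1515 and 1435 CPM with vehicle and at 2059, 1844 and 1840 CPM with glycine and rose by 0.38 (edgeR adjusted p = 0.00601). The call was lost without glycine library 1 (0.32, edgeR adjusted p = 0.0563). Of 5 tested genes in the imprinted region of chromosome 11p15, 2 were higher and 1 lower. PHLDA2, a growth-restraining gene of that region, rose by 0.49 (edgeR adjusted p = 0.0226), a call lost without vehicle library 1 (0.34) or glycine library 2 (0.39) or 3 (0.47). KCNQ1OT1, the antisense long noncoding RNA there, was lower at -0.37 (edgeR adjusted p = 0.0219). With the gene length trend removed it was at -0.18 (edgeR adjusted p = 0.253), a call lost, as it was without vehicle library 2 (-0.26) or glycine library 3 (-0.34).

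CYTOR (ENSG00000222041, chr2:87455368-87606805, plus strand) was at 7.11, 7.94 and 8.79 CPM with vehicle and at 8.52, 10.9 and 8.01 CPM with glycine. The groups overlapped, and the log2 change was 0.21 ± 0.13 (SE, n = 3 per group; edgeR adjusted p = 0.308). Its paralogous copy on the same chromosome, MIR4435-2HG, was at 32.2, 33.3 and 33.0 CPM with vehicle and 39.3, 44.1 and 39.4 CPM with glycine, without overlap, and rose by 0.32 (edgeR adjusted p = 0.00816). Of 38 annotated CYTOR transcripts, 37 aligned to a MIR4435-2HG transcript, at a median identity of 99.1% over the longest alignment of each (lowest 85.8%). The longest single alignment covered at least 80% of the transcript for 9 of them, and less for the others. CYTOR took 16.9% to 21.0% of the counts of the pair. Summed into 1 gene, the pair rose by 0.30 (edgeR adjusted p = 0.0165). Most of that sum was MIR4435-2HG, so it does not show a change of CYTOR itself. How reads that match both were shared out is not given in the sources used here. The log2 ratio of MIR4435-2HG to CYTOR differed by 0.12 between groups (exact permutation p = 0.4, adjusted p = 0.4 over 4 ratios).

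OIP5-AS1 (ENSG00000247556, chr15:41283990-41309737, plus strand), a cytoplasmic RNA known for pairing with a microRNA, had the highest CPM of the members. It was at 144.8, 152.5 and 136.2 CPM with vehicle and at 133.0, 130.0 and 136.8 CPM with glycine. Glycine library 3 lay just above vehicle library 3, and the log2 change of -0.12 ± 0.06 (SE, n = 3 per group; edgeR adjusted p = 0.260) had a fold interval of 0.839 to 1.01. The opposite-strand gene OIP5 overlaps 3.71% of its exons, with means of 14.6 CPM for vehicle and 15.3 CPM for glycine.

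HULC (ENSG00000251164, chr6:8652137-8653846, plus strand) was low but above the filter, with 68, 88 and 84 counts with vehicle and 82, 129 and 72 counts with glycine. These are 1.94, 2.52 and 2.34 CPM against 2.57, 2.20 and 1.71 CPM, and the groups overlapped. The log2 change was -0.08 ± 0.18 (SE, n = 3 per group; edgeR adjusted p = 0.818), with a fold interval of 0.724 to 1.23. A small RNA row on the same strand covers 43.2% of its exons and had 0 counts.

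**Figure D3:**
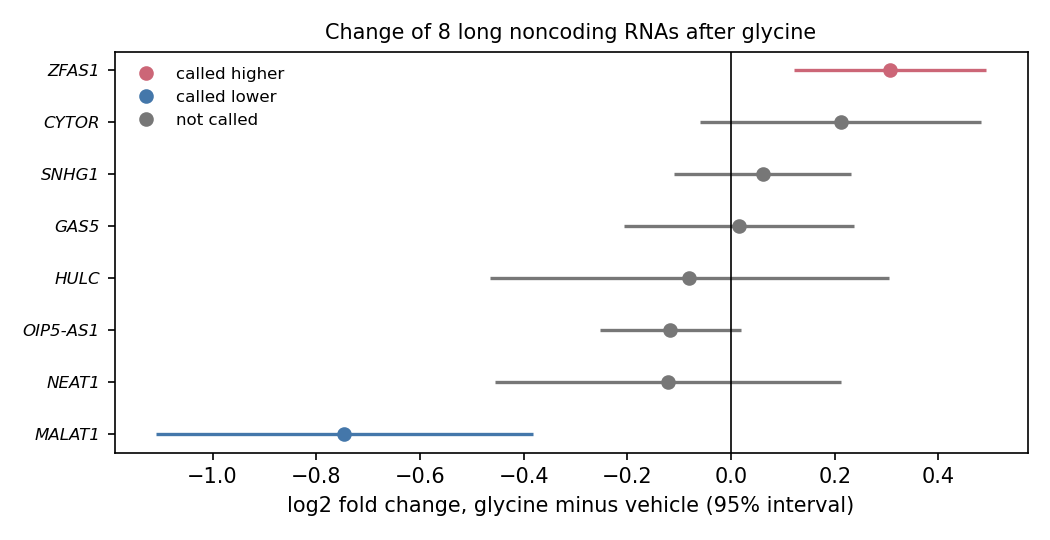
Log2 fold change, glycine minus vehicle, with its 95% interval for the 8 tested long noncoding RNAs, in red for called higher, blue for called lower and grey for not called. MALAT1 lies at -0.75 with its interval below 0 and ZFAS1 at 0.31 with its interval above 0, and the other 6 intervals include 0.

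The levels of the members were compared per kilobase of annotated exon, as CPM divided by exon length (RPKM), averaged over the 6 libraries. ZFAS1 led at 23.1 ± 3.39 (SD, n = 6), and its lowest library (19.2) was above the highest of OIP5-AS1 (12.0). OIP5-AS1 followed at 10.96 ± 0.656, MALAT1 at 7.57 ± 2.80 and GAS5 at 7.36 ± 0.802, and the ranges of these neighbours overlapped. Per kilobase, the order of MALAT1 and GAS5 differed between groups. In CPM, MALAT1 was above GAS5 in every library (40.2 to 109.8 against 22.1 to 29.1 CPM), so the crossing depends on the exon lengths used. It comes from the same counts tested above and is not a further result. MALAT1 was above GAS5 in each vehicle library (7.95, 8.01 and 12.5 against 7.88, 6.10 and 8.01 RPKM) and below it in each glycine library (4.59, 7.001 and 5.34 against 6.62, 7.87 and 7.68 RPKM). SNHG1 (5.28 ± 0.316) lay below GAS5 without overlap, and HULC (3.98 ± 0.607) below SNHG1. HULC, CYTOR (2.47 ± 0.372) and NEAT1 (2.22 ± 0.452) overlapped in turn. H19 and SNHG15 were last, at 0.0256 and 0.00108. These lengths join all annotated exons and retained introns, so a gene with long minor isoforms, such as NEAT1 at 22767 bases, is set low. They also hold bases shared with other annotated genes, 46.95% of the length for ZFAS1 and 43.17% for HULC. The effect of shared bases on these levels was not tested. In CPM, with no length, 3 of 10 members kept their rank.

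Genes beside the members mostly did not pass. Of 16 tested neighbouring protein-coding genes, 1 was higher (IGF2) and 1 lower.

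Of 18 tested long noncoding RNAs studied in liver cells or cancer beyond the members, 1 was higher and 3 lower. Their log2 changes had a median of -0.07. The higher one was MIR4435-2HG and the lower ones included KCNQ1OT1, both described above. UCA1, a transcript first found in bladder cancer, was lower at -0.53 (edgeR adjusted p = 0.00643), and HNF4A-AS1, antisense to a hepatocyte transcription factor gene, at -0.50 (edgeR adjusted p = 0.0379). The UCA1 call held in all 15 alternatives, and that of HNF4A-AS1 was lost without any single library except vehicle library 3, at -0.54 to -0.36.

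**Figure D4:**
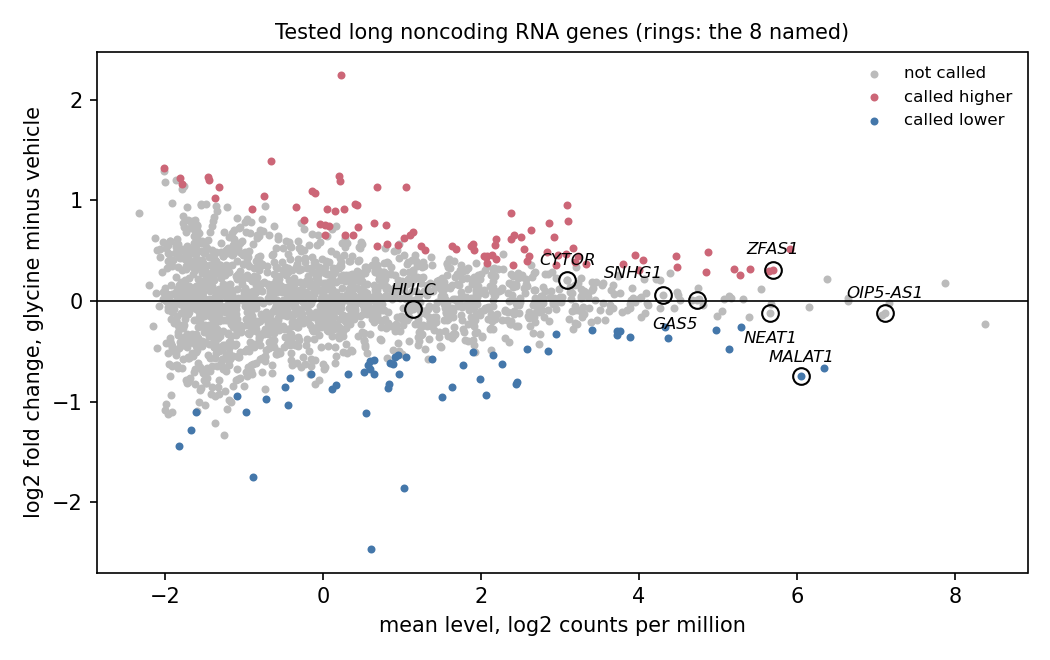
Mean level (log2 CPM) and log2 fold change, glycine minus vehicle, of the 1914 tested long noncoding RNA genes, in red for the 89 called higher and blue for the 57 called lower. Rings mark the 8 tested members, of which MALAT1 at -0.75 and ZFAS1 at 0.31 are coloured as called.

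Genes of 3 further lists were examined for a shift that could sit beside these results, and their part in them was not tested. Of 6 tested RNAs without a long poly(A) tail 1 was higher, the histone gene H2AC6 (log2 change 0.29, edgeR adjusted p = 0.0373). Of 10 liver cell markers 0 were higher and 2 lower, TTR at -0.32 (edgeR adjusted p = 0.00921) and APOA1 at -0.26 (edgeR adjusted p = 0.0483). At an unadjusted p under 0.05, 0 were higher and 5 lower, and DESeq2 and limma each gave 0 higher and 2 lower. The log2 change was below 0 for 8 of these 10 markers, with a median of -0.23 against 0.0035 over all tested genes. They summed to 31990 to 36340 CPM with vehicle and 28020 to 31950 CPM with glycine. The highest glycine sum lay just below the lowest vehicle sum, and 31.6% of all tested genes also showed no overlap between groups. Of 6 tested markers of other liver cell types 2 were higher, COL1A1 by 1.03 and CD68 by 0.63, and 2 lower, VWF at -1.18 and ACTA2 at -0.24 (edgeR adjusted p = 0.000585, 0.0226, 0.0239 and 0.0402). The calls of TTR and COL1A1 held in all 15 alternatives, while the others were lost in 5 to 9, most of them fits without 1 library. VWF was near the floor: it failed the filter of a mean of at least 1 CPM, and only 13 alternatives gave it a value.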

How the data were processed

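HepG2 cells received vehicle or 10 mM glycine for 24 h, with 3 libraries each. The authors deposited whole-number read counts per gene, 1 file per library and 57500 genes each. Per the submitters' processing notes, Trimmomatic 0.36, STAR 2.5.2b and featureCounts (Subread 1.5.2) were used with GRCh38; strand and multi-mapping settings are not given in the sources used here. In GENCODE 29, 54749 of the genes had the same start and end. Symbols came from the identifiers, and HULC from its position.

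Counts were tested in edgeR 4.0.16, by its quasi-likelihood test (R 4.3.3, two-sided), group alone, TMM scaling and the default filter (minimum count 10, minimum total 15). P-values were Benjamini-Hochberg adjusted over 15492 genes with a threshold of 0.05. CPM used scaled library sizes. The SE is the log2 change over the square root of F. Ratios within libraries, chosen after seeing the data, were compared by exact permutation. Intervals are 95%. CYTOR was aligned with BLAST 2.17.0. Scripts were tested on simulated counts.

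The members and 12 lists of related genes were chosen with earlier results of these data known. Genes named are all members, up to 5 genes with the smallest p among those called in each list or, where no gene was called, the one with the smallest p, and neighbours and snoRNA genes of members; some genes that this rule names are not reported here. SNHG5, SNHG12, SNHG16, ALB, MARCO, RN7SK and RMRP were named after their values were seen. P-values of the main fit measure the spread between these libraries. Alternatives were other scalings, filters, DESeq2 1.42.0, limma 3.58.1, a replicate block, CYTOR summed with its copy, 3 members left out of scaling, each library left out, and, added after seeing the data, a gene length trend removed by loess. Replicate numbers did not pair libraries (same-number correlations of -0.0577, -0.0268 and -0.00258). Pairs of unlike number had correlations from -0.198 to 0.214, and no block was fitted for them. Within groups, counts differed beyond sampling noise (chi-square of 6.97 to 26.8 per degree of freedom).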

Additional observations from a re-analysis of the deposited data

How the results depend on the processing

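MALAT1 kept its direction in all 17 alternatives (log2 change -0.93 to -0.49) and passed in 16. The exception was DESeq2 (-0.76, adjusted p = 0.0671), where 0 members were called lower. The smallest adjusted p for MALAT1 was 6.83e-20 (edgeR, filter of at least 1 count). It came at nearly the log2 change of the main fit (-0.74 against -0.75), with genes near 0 counts taken into the fit. That p is not read as a measure of the spread of MALAT1. ZFAS1 kept its direction in 17 (0.20 to 0.35) and passed in 14. Leaving out each library in turn, members called higher ranged from 0 to 1 and called lower from 1 to 2 (NEAT1 at -0.33 without vehicle library 2). Over those fits NEAT1 ranged from -0.33 to 0.0702 and ZFAS1 from 0.20 to 0.35. Genes called higher ranged from 587 to 926 and lower from 655 to 1010, long noncoding RNA genes from 43 to 65 and from 24 to 58, and genes of the other lists from 5 to 11 and from 5 to 13. With at least 1 count as the filter, 19 listed genes were lower, against 11. With CYTOR and its copy summed, the sum was called higher (0.30) beside ZFAS1. Most of its counts came from the copy, and CYTOR alone was not called (0.21). The order of levels kept 8 to 10 members in place when a library was left out, and 3 in CPM. Total counts as scaling gave 55.9% of calls higher, against 50.7%. The replicate block, in which the numbers did not pair the libraries, gave 1 member higher and 1 lower, 866 genes higher and 918 lower, and MALAT1 at -0.74; it changed no member's call. Depth limits what can be said of H19 and SNHG15, for which 3 counts are 0.0513 to 0.0940 CPM.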

Other observations

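Among long noncoding RNAs outside the member list, 94 tested genes averaged 10 CPM or more. Of these, 14 were called higher and 11 lower with no overlap between groups (a selection made after the values were seen). Without this cut, 6.71% of all tested genes were called higher and 6.54% lower, and 31.6% showed no overlap. The share of all genes at the same cut was not computed, so these counts are not read as a stronger response. HAGLR, a transcript of the HOXD cluster, was lower, at 0.632-fold (edgeR adjusted p = 6.02e-05). RNASEH1-DT, a divergent transcript of a ribonuclease gene, was higher, 1.37-fold (edgeR adjusted p = 0.00208). PINK1-AS, antisense to a mitochondrial kinase gene, was higher, 1.29-fold (edgeR adjusted p = 0.0321), with 52.5% of its exon length shared with other genes.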
